A study of Mus musculus with 6 samples.

Results

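The genes described here are 10 Hox genes of the mouse Hoxa and Hoxb clusters, Hoxa2, Hoxa3, Hoxa4, Hoxa5, Hoxa7, Hoxa9, Hoxb2, Hoxb3, Hoxb4 and Hoxb5, out of 31053 gene identifiers in each count table. They were taken from a list of anterior Hox genes known from lung mesenchyme and from blood progenitors. The rule used no values of these libraries, but the list was chosen with earlier results of these data known. All 10 symbols matched 1 Ensembl identifier each. The cells came from lungs of wild-type C57BL6 mouse fetuses at embryonic day 17, which were dissociated with liberase, stored frozen in DMSO and plated on a thin coat of dilute Matrigel. The medium held thrombopoietin, IL6, SCF, FGF, VEGF and Flt3 as the labels name them, and the wells were rinsed and refed on day 3. The suspension group holds 3 libraries of floating cells, from days 4, 5 and 6 of culture. The adherent group holds 3 libraries from the same days, made from cells lifted with accutase and enriched by sorting for viable VE-cadherin-positive cells (VE-cadherin is a junction protein of endothelium). Both groups shared the lung source, the freezing, the coating and the medium. The sort was applied to the adherent cells only, so attachment and sorting cannot be told apart here. There was 1 library per group and day, and the days served as the replicates. Nothing in the labels tells whether each day had its own culture or how many fetuses were pooled, so the p-values measure the spread between these libraries, which may be in part technical.

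Hox genes encode homeodomain transcription factors and lie in clusters whose gene order follows the head-to-tail order in which the genes are used in the embryo. Connective tissue cells keep the Hox code of the body level they came from, and the lung mesenchyme is known for genes of the anterior and middle parts of the Hoxa and Hoxb clusters, with Hoxa5 needed for normal lung development. Blood stem and progenitor cells use another part of the code, with Hoxa7, Hoxa9 and Hoxa10 among its best known members, and these genes are switched off as myeloid cells mature. The proteins bind DNA together with partners of the Pbx and Meis families, retinoic acid is a classical inducer of the anterior genes, and MLL and Polycomb complexes maintain their active and silent states.

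The 6 Hoxa genes lie on the minus strand of chromosome 6, and the 4 Hoxb genes on the plus strand of chromosome 11, in the GRCm38 annotation (GENCODE M21). Hoxa5 occupies chr6:52201754-52204587, Hoxa7 chr6:52214491-52221854 and Hoxa9 chr6:52223100-52231089. Hoxb2 occupies chr11:96350525-96354012, Hoxb4 chr11:96318267-96321638 and Hoxb5 chr11:96303336-96306121. RefSeq promoter windows of GRCm38, each running from 250 bases before to 50 bases after the annotated start, were matched for 6 of the 10 genes. The windows of Hoxa9, Hoxa7 and Hoxa5 are shown here because the fraction difference described next went from large and negative at Hoxa5 to small at Hoxa7 and positive at Hoxa9. Each reads 5′ to 3′ on the minus strand, with every CG dinucleotide in capitals.
Hoxa9 (chr6:52227321-52227620): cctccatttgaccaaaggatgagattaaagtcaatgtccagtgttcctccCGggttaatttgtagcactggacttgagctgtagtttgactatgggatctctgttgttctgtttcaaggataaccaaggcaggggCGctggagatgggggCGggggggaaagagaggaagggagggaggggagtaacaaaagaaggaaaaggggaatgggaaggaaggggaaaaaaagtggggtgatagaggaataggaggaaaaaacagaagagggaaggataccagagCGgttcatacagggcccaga
Hoxa7 (chr6:52218524-52218823): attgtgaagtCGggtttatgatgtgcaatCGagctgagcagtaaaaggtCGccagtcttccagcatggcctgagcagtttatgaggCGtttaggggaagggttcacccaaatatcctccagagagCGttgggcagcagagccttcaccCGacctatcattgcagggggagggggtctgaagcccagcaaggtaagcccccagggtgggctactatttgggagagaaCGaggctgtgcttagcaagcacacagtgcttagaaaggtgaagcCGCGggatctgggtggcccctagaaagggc
Hoxa5 (chr6:52204538-52204837): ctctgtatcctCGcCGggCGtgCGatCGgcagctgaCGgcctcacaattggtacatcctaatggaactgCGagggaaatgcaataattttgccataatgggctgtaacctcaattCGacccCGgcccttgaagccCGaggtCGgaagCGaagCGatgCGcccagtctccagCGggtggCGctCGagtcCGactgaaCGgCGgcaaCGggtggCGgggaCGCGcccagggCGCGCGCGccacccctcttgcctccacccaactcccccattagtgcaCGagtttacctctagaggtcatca
The Hoxa9 window held 4 CG dinucleotides, the Hoxa7 window 9 and the Hoxa5 window 29, against a median of 7 over 32851 RefSeq promoter windows. The windows of Hoxa7 and Hoxa9 both lie inside the longer GENCODE gene bodies given above. Of the other matched windows, those of Hoxa2, Hoxb4 and Hoxa3 held 9, 14 and 20.

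The window of Hoxa2 is shown as well because it was the only one of the 6 to hold both cofactor motifs that were searched. It reads 5′ to 3′ on the minus strand, with the motif matches in capitals.
Hoxa2 (chr6:52164782-52165081): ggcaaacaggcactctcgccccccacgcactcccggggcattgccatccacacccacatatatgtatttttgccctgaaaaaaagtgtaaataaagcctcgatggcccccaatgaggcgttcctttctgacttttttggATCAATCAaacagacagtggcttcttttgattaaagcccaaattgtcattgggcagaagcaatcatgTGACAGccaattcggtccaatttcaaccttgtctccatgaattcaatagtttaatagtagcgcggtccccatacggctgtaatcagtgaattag
The first match is the Hox-Pbx pair TGATNNAT, found on the opposite strand from position 140 of the window, and the other is the Meis motif TGACAG from position 207. Both strands were searched, and the matches do not overlap. The Hox-Pbx letters occurred in 8.85% and the Meis letters in 19.2% of all 32851 windows, so such matches are common. The Hoxa3 window held a Meis match from position 238, and the other 4 matched windows held neither motif. The retinoic acid response element DR5 (AGGTCA, 5 free bases, AGGTCA) was absent from all 13 matched Hoxa and Hoxb windows and present in 3 of the 32851. A CCAAT box (CCAAT) was found in 7 of the 13, against 37.4% of all windows.

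Gene counts were reads from 10x 3' libraries, kept here on the sense strand and scaled to CPM, the counts per 1000000 counts of the library after TMM scaling. Sense totals ran from 43805361 to 57784974 counts in suspension libraries and from 36451255 to 40882433 in adherent libraries, so that 3 counts were worth 0.0594 to 0.0756 CPM. The files hold whole libraries with no cell barcodes, so fewer cells of a type and less RNA per cell cannot be told apart. Cdh5, the gene of VE-cadherin, stood at 0.170, 0.381 and 0.119 CPM in the suspension libraries of days 4, 5 and 6, against 141, 226 and 79.0 CPM in the adherent libraries. Ptprc, which encodes the pan-leukocyte protein CD45, stood at 166, 199 and 249 CPM in suspension, against 12.5, 20.1 and 38.4 CPM in the adherent libraries. The marker used for the sort was thus present in the adherent libraries. The other fraction is labelled as suspension cells only, which names no marker. The adherent libraries also held genes of other lung cells after the sort: 14 fibroblast markers summed to 19.4 to 73.5 CPM in suspension, against 1631 to 2620 CPM in the adherent libraries.

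Of the 10 Hox genes, 9 were lower and 1, Hoxa9, was higher in suspension than in adherent cells (quasi-likelihood F test of edgeR, Benjamini-Hochberg adjusted p under 0.05 over 14912 genes). Among all genes tested, 29.7% were lower and 27.1% were higher by the same rule, 56.8% together. For all 10 Hox genes the 3 suspension libraries did not overlap the 3 adherent libraries, which was true of 67.8% of all genes tested. A change of any direction was thus common in this comparison, and the size of the change was the less common part. The log2 ratio of suspension over adherent was below -3 for 8 of the 10 genes, against 12.0% of all genes tested. The median log2 ratio over the 10 genes was -4.68, against -0.00247 over all genes tested.

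Hoxa2, Hoxa3, Hoxa4 and Hoxb5 passed the low-count filter of 0.236 CPM in 3 libraries only through the adherent libraries. Hoxa9 passed only through the suspension libraries, since 2 of its 3 adherent libraries were over it. None of these 5 genes had 3 libraries over the filter in its lower fraction alone, so their calls are not taken as support for the counts above. The other 5 genes were over the filter in all 6 libraries, all 5 were lower in suspension, and 4 of them had a log2 ratio below -3.

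**Figure D1:**
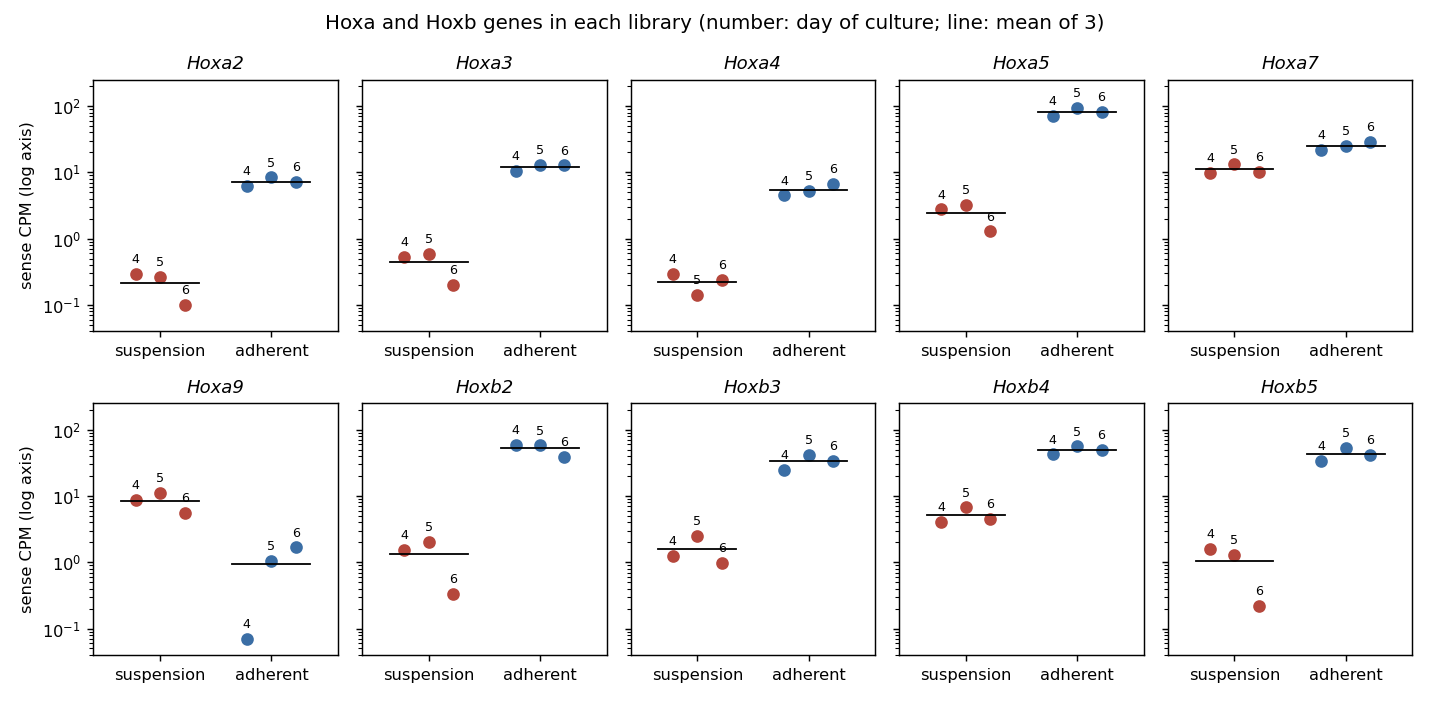
Sense CPM of the 10 Hox genes on a log axis, with suspension libraries on the left of each panel and adherent libraries on the right. Each point is 1 library, the number above it is the day of culture, and the line is the mean of 3. Hoxa9 is the only panel in which the suspension points lie above the adherent points, and Hoxa7 has the narrowest gap of the others.

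Hoxa5, the lung mesenchyme gene whose loss in mice causes respiratory tract defects, was among the genes with the widest gaps. Its level was 2.76, 3.22 and 1.29 CPM in the suspension libraries of days 4, 5 and 6, against 71.8, 94.2 and 81.9 CPM in adherent cells. The adherent libraries lay close together, and the day 6 suspension library was the lowest of the 6. The log2 ratio was -5.10 ± 0.37 (SE), with an adjusted p of 0.000401. The means were 2.42 ± 1.01 CPM in suspension and 82.6 ± 11.2 CPM in adherent cells (SD, n = 3 each), 34.1-fold lower in suspension.

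Hoxa2, Hoxa3 and Hoxa4 act in the patterning of the hindbrain, the pharyngeal arches and the cervical vertebrae. Their levels ran from 0.099 to 0.596 CPM in suspension, against 4.48 to 13.1 CPM in adherent cells. Behind the suspension values were few reads: 5 to 12 counts per library for Hoxa2, 10 to 25 for Hoxa3 and 6 to 12 for Hoxa4. All 3 genes were lower in suspension, with log2 ratios of -5.06 ± 0.41, -4.78 ± 0.41 and -4.59 ± 0.35 (SE). Adjusted p-values were 0.00048, 0.00052 and 0.000433.

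Hoxa7, which shapes the thoracic vertebrae and is also used in blood progenitors, was lower in suspension by much less. It stood at 9.88, 13.2 and 10.2 CPM in the suspension libraries of days 4, 5 and 6, against 21.7, 24.8 and 28.6 CPM in adherent cells. The 3 libraries of each fraction lay close together and the fractions did not overlap. The log2 ratio was -1.18 ± 0.17 (SE), with an adjusted p of 0.00187. When the test asked for a difference over 2-fold, the adjusted p of Hoxa7 was 0.180 and it was not called. In that test, 25.2% of all genes were called, and 16.4% of all genes were called lower.

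Hoxa9, a regulator of blood stem cell and progenitor growth that acts with Meis1, went the other way. It stood at 8.69, 11.2 and 5.52 CPM in the suspension libraries of days 4, 5 and 6, against 0.0692, 1.06 and 1.68 CPM in adherent cells. The suspension libraries held 279 to 470 reads of the gene, while the adherent library of day 4 held 3 and those of days 5 and 6 held 42 and 72. All suspension libraries were above all adherent libraries, and the distance between them differed widely from day to day. The log2 ratio was 3.18 ± 0.87 (SE), with an adjusted p of 0.0205. This call was the least stable of the 10. Its adjusted p was 0.0664 without the day 5 suspension library, 0.0665 without the day 5 adherent library and 0.0581 in the test against 2-fold, where 8.77% of all genes were called higher.

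Hoxb2 and Hoxb5 had the widest gaps of the 4 Hoxb genes. Hoxb2, a hindbrain patterning gene, stood at 1.55, 2.05 and 0.337 CPM in the suspension libraries of days 4, 5 and 6, against 59.6, 57.95 and 39.5 CPM in adherent cells, a log2 ratio of -5.33 ± 0.61 (SE). Hoxb5, which takes part in lung branching and marks long-term blood stem cells in mouse bone marrow, stood at 1.57, 1.31 and 0.218 CPM in suspension, against 33.6, 52.6 and 41.4 CPM in adherent cells. Its log2 ratio was -5.38 ± 0.64 (SE), and the adjusted p-values were 0.000992 for Hoxb2 and 0.00111 for Hoxb5. In both genes the day 6 suspension library stood clearly below the other two.

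Hoxb4, whose forced expression expands blood stem cells in mice, kept the narrowest gap of the 4 Hoxb genes. It stood at 4.07, 6.74 and 4.53 CPM in the suspension libraries of days 4, 5 and 6, against 42.6, 56.1 and 49.5 CPM in adherent cells. The log2 ratio was -3.27 ± 0.23 (SE), with an adjusted p of 0.00039. Hoxb3, the paralogue of Hoxa3, ran from 0.99 to 2.50 CPM in suspension, against 25.0 to 41.4 CPM in adherent cells. Its log2 ratio was -4.40 ± 0.41 (SE), with an adjusted p of 0.000602.

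Other genes of both clusters were read beside the 10, to see how far the pattern followed gene position. In the Hoxa cluster, Hoxa6 was lower in suspension with a log2 ratio of -3.06 ± 0.28 (SE; adjusted p 0.000587). Hoxa10, the neighbour of Hoxa9 on its posterior side and also a blood progenitor gene, had 18, 36 and 32 counts in suspension on days 4, 5 and 6, against 0, 10 and 10 counts in adherent cells. Its log2 ratio of 1.98 ± 0.89 (SE) missed the threshold (adjusted p 0.101). Like Hoxa9, Hoxa10 entered the test only through the suspension libraries. Hoxa11 and Hoxa13 had no counts in any library. Along the Hoxa cluster the log2 ratio thus ran from -5.10 to -4.59 over Hoxa2 to Hoxa5, was closer to 0 at Hoxa6 and Hoxa7, and was above 0 at Hoxa9 and Hoxa10.

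The Hoxb cluster showed no such turn at its posterior end. Hoxb6, Hoxb7, Hoxb8 and Hoxb9 were all lower in suspension, with log2 ratios of -5.36 ± 0.61, -4.91 ± 0.58, -5.44 ± 0.56 and -3.76 ± 0.84 (SE). Their adjusted p-values ran from 0.000728 to 0.00958. These 4 genes were under the filter in at least 1 suspension library and entered the test only through the adherent libraries. Hoxb8, a gene also used in myeloid progenitors, averaged 0.752 ± 0.512 CPM in suspension and 32.2 ± 5.71 CPM in adherent cells (SD, n = 3 each). Hoxb1 and Hoxb13 had 3 counts each over all 6 libraries. No test of the trend along either cluster was made.

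**Figure D2:**
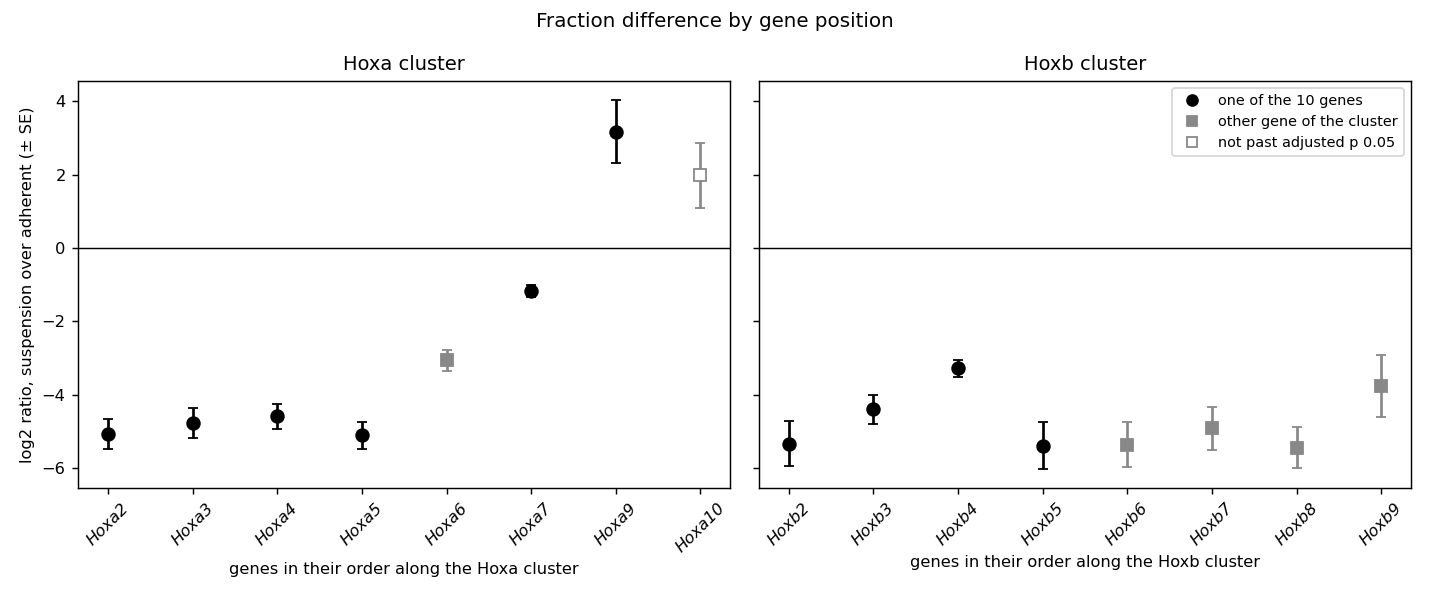
Log2 ratio of suspension over adherent CPM, with its SE, for tested genes in their order along the Hoxa cluster (left) and the Hoxb cluster (right). Black circles are the 10 Hox genes, grey squares the other genes of the clusters, and the open square is Hoxa10, which missed the threshold at an adjusted p of 0.101. The values turn positive at Hoxa9 and Hoxa10, which entered the test only through the suspension libraries, and stay below -3 in all Hoxb genes drawn.

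Of 8 noncoding RNAs of the clusters found in the tables, 4 had enough counts to be tested, and these were lower in suspension, as were 29.7% of all genes. Hoxb3os and Hoxb5os passed the filter only through the adherent libraries, so the calls of Hotairm1 and Hoxaas3 are the ones that the filter did not favour. Hotairm1, a noncoding RNA of the Hoxa cluster that is induced in maturing human myeloid cells, had a log2 ratio of -2.86 ± 0.14 (SE; adjusted p 0.000342). Hoxaas3, which runs opposite Hoxa3 and Hoxa7, had one of -3.003 ± 0.24 (SE; adjusted p 0.000457). Hoxb3os and Hoxb5os had log2 ratios of -4.85 ± 0.42 and -5.66 ± 0.70 (SE), with adjusted p-values of 0.00054 and 0.00123. At Hoxb3os the tables hold 579 sense reads and 10387 antisense reads, so that 94.7% lay on the strand of Hoxb2 and Hoxb3, and its sense reads cannot be told apart from stray antisense reads of those genes. At Hoxaas3 46.9% of the reads lay on the opposite strand. Halr1 had 1 count over the suspension libraries and 20 over the adherent ones, and Gm53 had 9 and 20, too few for the test.

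The other Hox clusters were nearly silent in suspension and low in adherent cells as well. In adherent cells 9 Hoxc genes summed to a mean of 0.647 CPM and 9 Hoxd genes to 2.27 CPM, against 311 CPM for the 10 genes. Hoxc genes had no count in any suspension library, and Hoxd genes had 3 counts, all of Hoxd8. With suspension set to 3 counts per library, Hoxc4 was at least 5.56-fold lower, Hoxd9 at least 6.11-fold lower and Hoxd10 at least 5.14-fold lower in suspension. Their adherent means were 0.377, 0.414 and 0.348 CPM. Hoxc6 and Hoxc13 had bounds of 2.01-fold and 1.38-fold. Hoxd8 averaged 0.0242 ± 0.0419 CPM in suspension and 1.48 ± 0.997 CPM in adherent cells (SD, n = 3 each). Hoxc4, Hoxd8 and Hoxd9 were called lower, with adjusted p-values of 0.00484, 0.00543 and 0.00334, and the other Hoxc and Hoxd genes did not enter the test. These 3 genes were under the filter in every suspension library and entered only through the adherent libraries, so their calls add nothing to their levels.

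Summed over the 10 genes, Hox reads made up 29.1, 39.1 and 20.6 per 1000000 counts in suspension on days 4, 5 and 6, against 307, 386 and 318 per 1000000 in adherent cells. Exact binomial 95% intervals, which cover counting error only, were 27.6 to 30.8 on day 4 in suspension and 302 to 313 on day 4 in adherent cells. The log2 ratio of the mean shares was -3.51, or 11.4-fold lower in suspension, with day values of -3.40, -3.30 and -3.94 (SD 0.346). Every day showed the same direction, and the gap was widest on day 6. Without Hoxa7 and Hoxa9 the log2 ratio was -4.75. All these shares are of library totals without TMM scaling. With TMM scaling, as for the CPM values, the 10 genes summed to a mean of 31.9 CPM in suspension and 311 CPM in adherent cells. The log2 ratios by day were then -3.16, -3.11 and -3.68.

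The make-up of those reads differed as well. Hoxa7 and Hoxa9 together gave 60.1%, 59.2% and 66.5% of them in suspension on days 4, 5 and 6, against 7.90%, 7.30% and 10.0% in adherent cells. The exact binomial 95% interval was 57.4 to 62.8% on day 4 in suspension and 7.42 to 8.39% on day 4 in adherent cells. The 4 Hoxb genes gave 27.4%, 30.6% and 25.8% in suspension, against 58.4%, 58.6% and 54.2% in adherent cells. Hoxb4 gave 13.2%, 16.4% and 19.2% in suspension, against 15.4%, 15.8% and 16.4% in adherent cells, and the fractions overlapped. These are shares of reads: 3' reads are counted per gene without regard to its length, and a larger share does not by itself show a higher level than that of another gene.

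**Figure D3:**
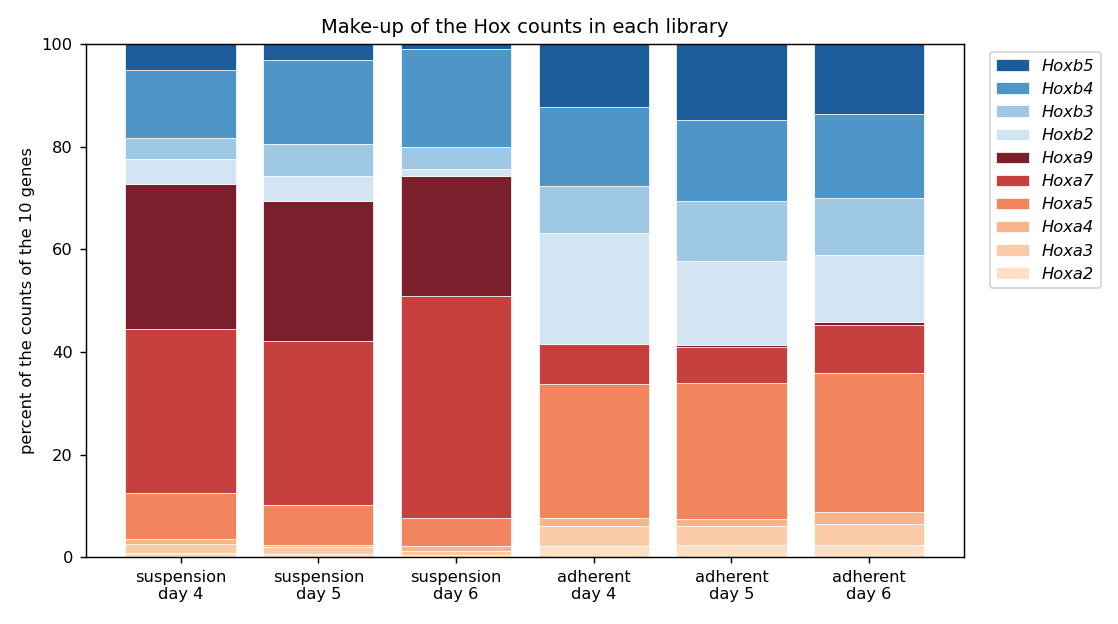
Share of each gene in the summed sense counts of the 10 Hox genes, in percent, with 3 suspension libraries on the left and 3 adherent libraries on the right. Red shades are Hoxa genes and blue shades Hoxb genes. Hoxa7 and Hoxa9 fill 59.2% to 66.5% of the suspension bars and 7.30% to 10.0% of the adherent bars.

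Changes over the 3 days were then tested as slopes per day, and none of the 10 genes passed the threshold in any of 4 tests by edgeR. These were a slope common to both fractions, a slope within each fraction, and the suspension slope minus the adherent slope. By the same rule, 0.0134% of all genes had a common slope, 0.496% a suspension slope, 11.3% an adherent slope and 0.516% a slope difference. At an unadjusted p under 0.05, the number of Hox genes was 0, 1, 1 and 2 of 10, against 20.4%, 16.5%, 30.4% and 19.6% of all genes, so the Hox counts were near or under the share over all genes. DESeq2, a count test with other assumptions on the spread, called 0, 1, 1 and 2 of the 10, and 9.91% of all genes for the common slope. The tests of slopes within fractions had 2 residual degrees of freedom.

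The Hox gene with an unadjusted p under 0.05 in suspension was Hoxb5, with a slope of -1.16 ± 0.38 log2 units per day (SE; adjusted p 0.229). DESeq2 gave -1.30 with an adjusted p of 0.00397, where 4.11% of all genes were called downward. The edgeR slope was -0.26 (adjusted p 0.999) without the day 6 suspension library and -2.61 (adjusted p 0.290) without that of day 4, so its size rests on those libraries. The gap between the fractions in Hoxb5 was 21.4-fold on day 4, 40.1-fold on day 5 and 190-fold on day 6, lower in suspension. Counting error alone gave 95% intervals of 16.7 to 27.8, 30.7 to 53.5 and 106 to 382. The day 6 suspension library held 11 reads of the gene, against 65 and 55 on days 4 and 5.

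The day 6 suspension library was low in fibroblast genes too. The 14 fibroblast markers summed to 73.5, 66.7 and 19.4 CPM in the suspension libraries of days 4, 5 and 6, against 1631, 2487 and 2620 CPM in adherent cells. Col1a1, a collagen chain, stood at 19.3, 15.6 and 3.68 CPM in suspension, and Tbx5, a transcription factor of lung mesenchyme, at 1.14, 1.12 and 0.376 CPM. Col1a2, Pdgfra, Tbx4 and Foxf1 of the same list were also lowest on day 6. Tcf21, another of the 14, went the other way, at 0.024, 0.048 and 0.178 CPM, from 1, 2 and 9 counts. All 14 fibroblast markers had counts in suspension, and 13 of 13 tested were lower there, with log2 ratios from -7.70 to -4.53. Among all genes tested, 29.7% were lower. The 10 pericyte and smooth muscle markers summed to 126, 23.2 and 9.66 CPM in suspension, against 3189, 732 and 945 CPM in adherent cells. Not every Hox gene went with these markers. Fitted suspension slopes, none of them called by edgeR, were below 0 for 8 of the 10 and above 0 for Hoxa7 and Hoxb4. From day 4 to day 6 Hoxb4 moved from 4.07 to 4.53 CPM in the floating cells, by way of 6.74 CPM on day 5. Hoxa4 had only 12 suspension reads on day 4, 6 on day 5 and 12 on day 6, too few to place it. The part of these markers in the Hox values was not tested.

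In adherent cells the only Hox gene with an unadjusted p under 0.05 for its slope was Hoxa9, at 1.71 ± 0.50 log2 units per day (SE; adjusted p 0.0884). DESeq2 gave 1.99 with an adjusted p of 0.00159, where 10.4% of all genes were called upward. Without a filter on low counts the adjusted p was 0.0159. The slope was 2.27 (adjusted p 0.0183) without the day 5 adherent library, 3.88 (adjusted p 0.0993) without that of day 6 and 0.66 (adjusted p 0.615) without that of day 4. It thus rests on the day 4 library, which held 3 reads of the gene. The Hoxa9 gap was 126-fold on day 4, 10.6-fold on day 5 and 3.29-fold on day 6, higher in suspension. Counting error alone gave 95% intervals of 42.6 to 612, 7.71 to 14.9 and 2.53 to 4.33. With 1 library per fraction and day, these intervals leave out the spread between libraries. The slope difference of Hoxa9 was -2.03 ± 0.63 (SE; adjusted p 0.180), and DESeq2 gave -2.32 with an adjusted p of 0.0132. Without the day 4 adherent library it was -0.99 (adjusted p 0.531). DESeq2 also called the slope difference of Hoxb5 (adjusted p 0.0197), beside 5.53% of all genes called in that direction. By edgeR that difference was -1.31 (adjusted p 0.205), and -0.37 (adjusted p 0.882) without the day 6 suspension library.

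Genes of developing neutrophils differed between the adherent libraries of the same days. Mpo, the granule enzyme myeloperoxidase, stood at 293, 296 and 159 CPM in suspension, against 0.115, 7.66 and 8.29 CPM in the adherent libraries of the same days. Elane, neutrophil elastase, stood at 252, 462 and 267 CPM in suspension, against 0.0231, 16.7 and 11.4 CPM in the adherent libraries. Both were thus far lower on day 4 than on days 5 and 6 in adherent cells. The 9 neutrophil markers summed to 25392, 32379 and 75934 CPM in suspension, against 226, 747 and 968 CPM in adherent cells. All 9 were higher in suspension, against 27.1% of all genes tested. A low day 4 in adherent cells was not particular to neutrophil genes. Mast cell and basophil markers summed to 31.7, 89.0 and 99.5 CPM there, lymphoid markers to 2.70, 7.33 and 7.36 CPM and macrophage markers to 2976, 3759 and 7602 CPM. Erythroid and megakaryocyte markers were lowest on day 5, and stem and progenitor markers on day 6. The part of any of these markers in the Hoxa9 values of the adherent libraries was not tested. Hoxa7 in adherent cells stood at 21.7 CPM on day 4, when the neutrophil markers and Hoxa9 were lowest, and at 28.6 CPM on day 6.

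**Figure D4:**
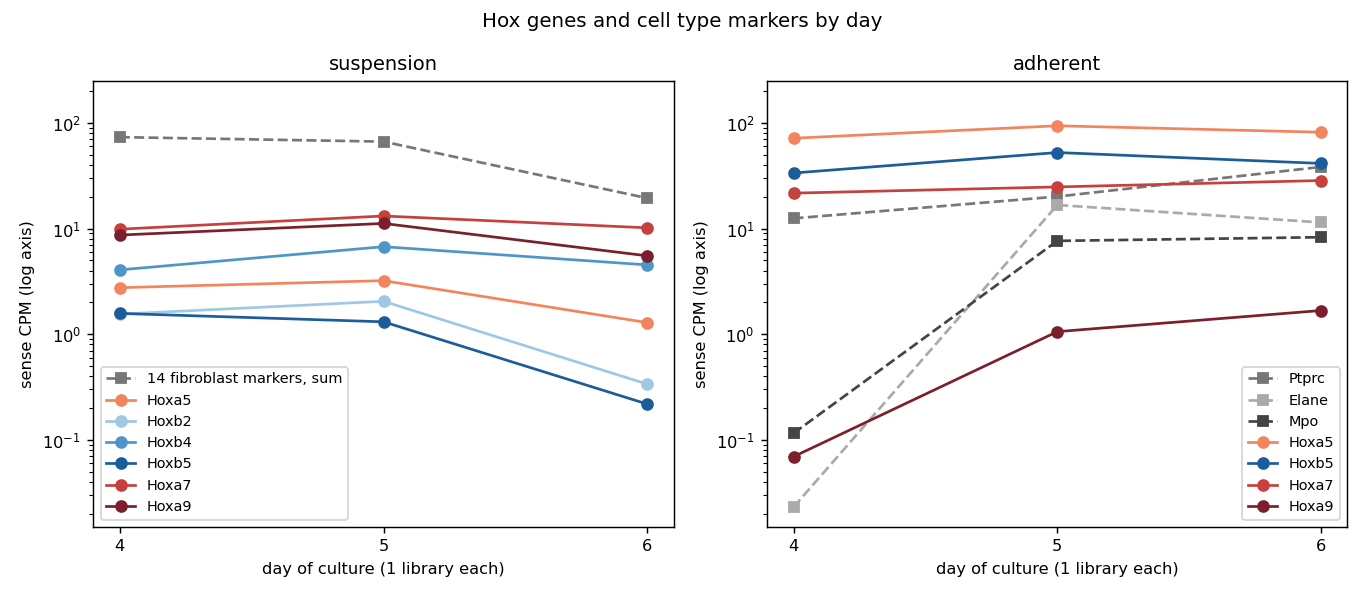
Sense CPM on a log axis against day of culture, 1 library per point, in suspension (left) and adherent cells (right). Solid lines are Hox genes. The dashed lines are the sum of 14 fibroblast markers on the left, and Ptprc, Elane and Mpo on the right. Hoxb2, Hoxb5 and the fibroblast markers are lowest on day 6 in suspension, where Hoxb4 is at 4.53 CPM, against 4.07 CPM on day 4, and Hoxa9, Mpo and Elane are lowest on day 4 in adherent cells.

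Other marker lists that could stand behind Hox reads were read in the same way. By the test used for the 10 genes, 27.1% of all genes were higher and 29.7% were lower in suspension. Of 12 endothelial markers, 11 were lower in suspension, where the list summed to 15.7 to 21.7 CPM, against 640 to 1665 CPM in adherent cells. Of 11 epithelial markers, 5 were lower and 6 did not pass. They summed to 268, 43.2 and 15.0 CPM in suspension on days 4, 5 and 6, against 1457, 398 and 1051 CPM in adherent cells. Mesothelial markers summed to 14.9, 4.24 and 0.99 CPM in suspension, against 176, 61.4 and 44.5 CPM. Both lists were thus lowest on day 6 in suspension, like the fibroblast markers. Neural and neural crest markers were of interest because the anterior genes are active in hindbrain derivatives. The list summed to 1.68 to 2.72 CPM in suspension, against 4.82 to 31.4 CPM in adherent cells, with Sox10 at 0 in all but the day 5 suspension library. Of 14 stem and progenitor markers, 4 were higher and 8 lower in suspension. Of 10 macrophage markers, 8 were higher in suspension, where they summed to 18003 to 20112 CPM, against 2976 to 7602 CPM in adherent cells.

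The partner proteins of Hox factors were measured next. Of 9 genes of the Pbx, Meis and Pknox families, 1 was higher, 6 were lower and 2 did not pass the test. Among all genes tested, 27.1% were higher and 29.7% were lower. Meis1, the partner of Hoxa9 in blood progenitors, averaged 7.62 ± 1.15 CPM in suspension and 63.4 ± 3.61 CPM in adherent cells (SD, n = 3 each), a log2 ratio of -3.06 ± 0.14 (SE; adjusted p 0.000342). Meis2, a partner common in mesenchyme, had a log2 ratio of -4.58 ± 0.36 (SE). Pknox2 had one of -3.82 ± 0.74 (SE), and Pbx2 was the gene that was higher, at 0.53 ± 0.15 (SE; adjusted p 0.0228). Hoxa9 and Meis1 thus lay on opposite sides of the fraction comparison.

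Genes of the complexes that maintain Hox expression had log2 ratios from -2.44 to 0.86. Of 11 MLL and DOT1L complex genes, 3 were higher, 3 were lower and 5 did not pass the test, and their median log2 ratio was -0.0925. Among all genes tested, 27.1% were higher and 29.7% were lower, so these counts were near the share over all genes. Kmt2a, the MLL methyltransferase itself, had a log2 ratio of -0.69 ± 0.09 (SE; adjusted p 0.00155). Psip1, which tethers MLL to chromatin, had one of -1.51 ± 0.12, Mllt3 one of -1.63 ± 0.11 and Dpy30 one of 0.46 ± 0.12 (SE). Of 15 Polycomb genes, 3 were higher, 6 were lower and 6 did not pass the test, beside the same shares of all genes. The median log2 ratio of the 15 was 0.29, on the opposite side from the larger of the 2 counts. Suz12, a core subunit of PRC2, was higher at 0.44 ± 0.09 (SE; adjusted p 0.00831), and its catalytic partner Ezh2 had 0.30 ± 0.16 (SE; adjusted p 0.146). The PRC1 genes Phc2, Phc1 and Pcgf2 were lower, at -0.91 ± 0.20, -1.59 ± 0.20 and -2.44 ± 0.24 (SE).

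Of 16 genes of retinoic acid supply, breakdown and response, 14 were tested, of which 2 were higher, 7 were lower and 5 did not pass. The shares over all genes tested were 27.1% higher and 29.7% lower. Aldh1a3, a retinoic acid synthesis enzyme, had no counts in suspension and was at least 13.96-fold lower there, with suspension set to 3 counts per library (adjusted p 0.0055). Aldh1a2, the main synthesis enzyme of embryonic mesenchyme, had a log2 ratio of -5.39 ± 0.59, and the receptor gene Rarb, a classical retinoic acid target, one of -4.26 ± 0.53 (SE). These 2 genes were picked after their values were seen. Dhrs3 averaged 115 ± 1.45 CPM in suspension and 59.3 ± 33.3 CPM in adherent cells, and Crabp1 averaged 6.32 ± 6.50 CPM in suspension and 86.6 ± 99.2 CPM in adherent cells (SD, n = 3 each). Neither passed (adjusted p 0.0848 and 0.0653).

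The genes whose profile over the 6 libraries lay nearest to Hoxa5 were Hoxb8, Bmper, Tbx5, Thbs2 and Antxr1, out of 11273 candidates. Likeness was the root mean square difference of log2(CPM + 0.5) after each gene's own mean was taken off, and it was 0.099 for Hoxb8 and 0.166 for Antxr1. Tbx5 belongs to the fibroblast markers used above. Hoxb5 came at rank 9, Hoxb2 at rank 33 and Hoxa9 at rank 11034. For Hoxb4 the 5 nearest genes were Irs1, Abcc9, Hdgfl3, Peak1 and Tgfb3, at 0.111 to 0.178. The pseudocount shrinks the differences of low genes, and Abcc9, with a mean of 0.0862 CPM in suspension, had a fitted log2 ratio of -5.68, against -3.27 for Hoxb4.

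The strand used in counting mattered for some of the genes. Hoxb3os runs opposite to Hoxb2 and Hoxb3 and shares 953 exon bases with Hoxb2 (27.3% of its exons) and 2250 with Hoxb3 (52.9%). When reads on either strand were counted, the sum over all libraries was 705 for Hoxb2, against 6747 sense reads, and 740 for Hoxb3, against 4372 sense reads. Hoxa4, which shares 16.0% of its exons with Gm29430 on the opposite strand, had 267, against 718 sense reads. Hoxa5, Hoxa9 and Hoxb4 share no exon bases with an annotated gene on the opposite strand, and their either-strand counts were 102%, 103% and 103% of the sense counts. All 10 calls and directions were kept with either-strand counts, where 29.4% of all genes were called lower and 26.5% higher. Gm28308 lies on the same strand as Hoxa2 and Hoxa3 and shares 15.0% and 8.01% of their exons, so reads there cannot be assigned to either gene, and counts of Hoxa2 and Hoxa3 are uncertain to that extent.

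**Figure D5:**
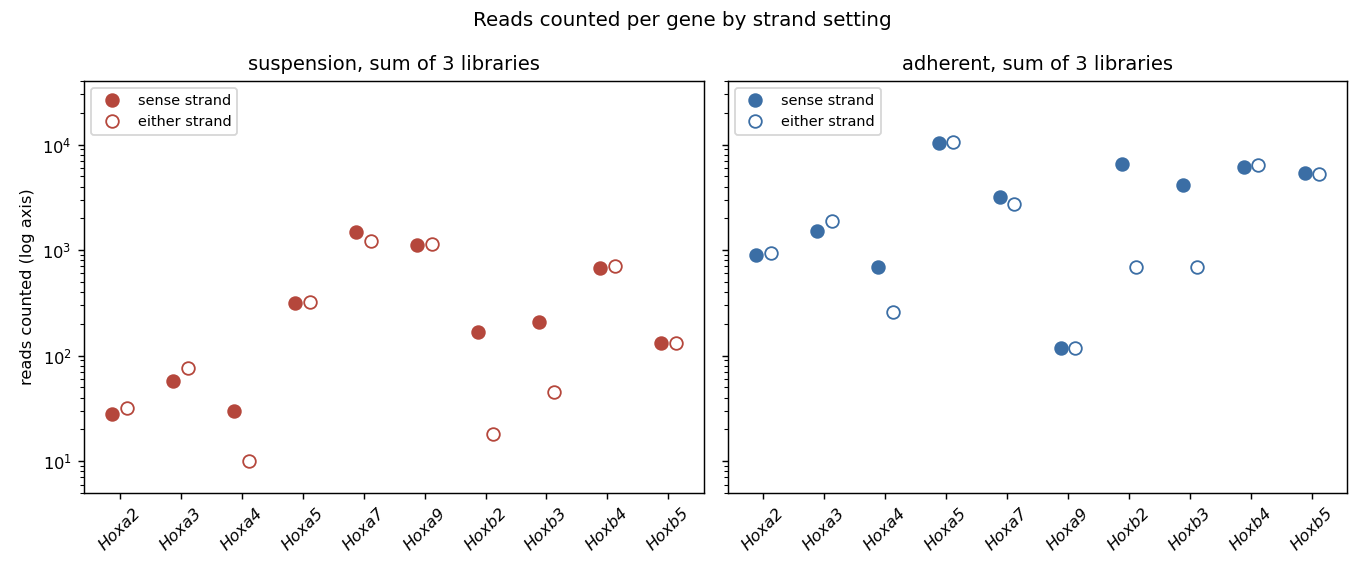
Reads counted per Hox gene, summed over 3 libraries, on a log axis, in suspension (left) and adherent cells (right). Filled circles are reads on the sense strand and open circles reads on either strand. Hoxb2, Hoxb3 and Hoxa4 lose most of their reads in the either-strand count, in both fractions, while Hoxa5, Hoxa9 and Hoxb4 keep theirs.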

How the data were processed

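The deposited counts are whole-number read counts per gene for 6 whole 10x 3' v3 libraries, in 3 columns (either strand, sense, antisense), with no cell barcodes and no UMI correction, per the file headers and values. The submitters' processing notes name bcl2fastq, Cell Ranger, STARsolo and the mm10 build, with no versions. From the authors' counts, the sense column was used, since the library kit keeps strand. Symbols came from GENCODE M21 (30934 of 31053 identifiers matched), and the ID with most counts kept each of 28 duplicated symbols. Reads in no gene (16.7% to 24.2% per library) and ambiguous reads stayed out of library sizes. edgeR 4.0.16 in R 4.3.3 (TMM, filterByExpr, quasi-likelihood fit, Benjamini-Hochberg over 14912 of 22019 genes with counts) gave log2 ratios of suspension over adherent, with 4 residual degrees of freedom. The SE is the size of the log2 ratio divided by the root of the F statistic. Slopes over days 4, 5 and 6 used 3 (common) or 2 (per fraction) residual degrees of freedom. DESeq2 1.42.0, a 2-fold threshold test, other filters, other scalings, thinning, either-strand counts, a day block and leaving out each library were alternatives. The scripts were tested on simulated data. With 3 libraries against 3, an exact permutation test cannot go below 0.1, so none is given for single genes.

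The labels give both fractions the same days, so the days pair the libraries. Same-day libraries deviated together (correlations 0.338, 0.140 and 0.282), while those of different days gave -0.306 to 0.0134. The deviations were taken from each fraction's own mean and cancel out over its days. Positive same-day values thus push the different-day values down, and the latter are no separate support for the pairing.

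The 10 genes, the other gene lists and the tests were chosen with earlier results of these data known. The text names all 10 genes, the other genes and noncoding RNAs of both clusters with at least 10 counts, from each pathway list the 3 of highest mean CPM and the 2 called genes of largest log2 ratio, and the 5 genes most alike to Hoxa5 and Hoxb4 (mean of at least 2 CPM). Some genes that this rule names are not reported here. A comparison of the Hox protein sequences was not made.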

Additional observations from a re-analysis of the deposited data

Results flagged for a closer look

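Reads assigned to the antisense strand of the 10 Hox genes, which are no part of the sense counts that the fraction comparison rests on, numbered 53, 70 and 55 in suspension on days 4, 5 and 6, against 674, 784 and 784 in adherent cells, all above the 3 counts that a count of 0 allows. They made up 3.99%, 3.89% and 4.41% of the sense and antisense reads of these genes in suspension, against 5.34%, 5.27% and 5.69% in adherent cells. Over all genes the same share was 6.51% to 7.30% in suspension and 6.24% to 6.65% in adherent cells. By gene, the antisense share over all libraries was highest in Hoxa3 (20.7%) and Hoxb3 (11.2%), and lowest in Hoxa5 (1.49%) and Hoxa7 (2.05%).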

How the results depend on the processing

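Of the alternative values for single Hox genes in the fraction comparison, 143 kept their direction and call and 4 lost the call. These were Hoxa9 without the day 5 library of either fraction (adjusted p 0.0664 and 0.0665) and Hoxa9 and Hoxa7 in the test against 2-fold (0.0581 and 0.180). The count of Hox genes higher in suspension was then 0, as with the 10 CPM filter, which removes Hoxa2, Hoxa4 and Hoxa9. Leaving out 1 library at a time gave 0 to 1. Over all genes, the 10 CPM filter left 2365 higher and 2741 lower, the 2-fold test 1308 and 2451, and day as a replicate block gave 4074 and 4343, against 4044 and 4423 without it; the block changed no call of the 10 genes. Without Hoxa7 and Hoxa9, chosen after seeing the data, the summed log2 ratio was -4.75.

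Slopes depended far more on the setting. Common slopes were called for 2 genes, for 66 with no filter, for 1478 by DESeq2 and for 0 to 13 with 1 library left out. Suspension slopes were called for 74 genes, 809 with no filter, 802 by DESeq2 and 0 to 544 with 1 library left out. Adherent slopes were called for 1681, 2646 with no filter and 288 to 2902 with 1 library left out. Slope differences were called for 77, 1006 with no filter, 1033 by DESeq2 and 0 to 859 with 1 library left out. Among the 10 Hox genes the count of 0 became 1 (suspension slope, DESeq2), 1 (adherent slope, no filter, DESeq2 or no day 5 adherent library) and 1, 2 and 1 (slope difference, no filter, DESeq2 and no day 5 adherent library, range 0 to 1). Slopes of Hox genes that were not called changed sign in 9 alternative values for the common slope, 11 in suspension, 6 in adherent cells and 9 for the difference, mostly where the day 4 or day 6 library was left out.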
